A study of Rattus norvegicus with 6 samples.

Results

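Ion channel genes were examined in left ventricular tissue of transplanted rat hearts, taken 1 day after surgery from grafts of young or aged donors. The genes were taken by symbol, namely those beginning with Kcn (potassium channels and their subunits), Hcn with a number (pacemaker channels), Scn with a number (voltage-gated sodium channels) or Cacn (voltage-gated calcium channels), which gave 134 of the 22250 genes in the deposited table. All 6 hearts came from WT Sprague-Dawley rats, 3 from young donors (10 weeks; animals 3, 13 and 15) and 3 from aged donors (1 year, labeled old; animals 3, 4 and 7), and in the study's model the hearts are kept cold in University of Wisconsin solution before heterotopic transplantation into young rats. The comparison addressed how gene expression differs between aged and young donor hearts after cold storage and transplantation. A heterotopic graft is attached to the recipient's circulation beside the native heart and does not carry its output, and the samples are bulk tissue, in which fewer cells of a type and less RNA per cell cannot be told apart.

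In a ventricular cardiomyocyte, the action potential begins when voltage-gated sodium channels open, continues while calcium channels let calcium enter and trigger contraction, and ends when several kinds of potassium channel open and return the membrane to rest. Inward rectifiers hold the resting potential, ATP-sensitive potassium channels open when the cell's energy supply falls, tandem-pore (K2P) channels carry background potassium current, and HCN channels give the pacemaker current of the conduction system. Potassium channels also work outside cardiomyocytes. In leukocytes they keep the membrane negative and so support calcium entry, and in vascular smooth muscle they help set the tone of the vessel.

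The libraries held 21457509 to 24560869 counted reads, and values are given below as CPM (read counts scaled to the library size) scaled by TMM, edgeR's scaling factor for library composition. Young animal 15 and aged animal 3 stood apart from the other hearts of their groups. The summed level of 10 cardiomyocyte marker genes, none at 0 in any heart, was 96642, 106450 and 12346 CPM in young animals 3, 13 and 15, and 604, 7664 and 6703 CPM in aged animals 3, 4 and 7, and 5 of the 10 markers were lower in aged hearts, by the limits given for the channel genes, while 0 were higher. Of 10 macrophage markers 5 were higher in aged hearts, and their sum ran from 369 to 2352 CPM in young and from 3685 to 7093 CPM in aged hearts. Of 10 neutrophil markers 6 were higher, with sums of 134 to 202 CPM in young and 454 to 1488 CPM in aged hearts, and 1 of them, Fpr1, was at 0 in at least 1 heart. Endothelial markers summed to 1187 to 1744 CPM in young and 950 to 1442 CPM in aged hearts, with 1 of 7 lower. The part that these marker levels have in the results below was not tested. A fit with the cardiomyocyte markers as a covariate is given below. It cannot separate marker level from donor age, because every aged heart lay below every young heart in the cardiomyocyte marker sum.

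Most channel genes that changed were lower in aged donor hearts. Of the 134 genes, 78 passed edgeR's expression filter and were tested. The study's limits ask for a fold change over 1.5 or under 0.67 and for unadjusted p under 0.05, here in edgeR's quasi-likelihood test. Of the 78 genes, 27 fell and 4 rose past these limits. That is 39.7% of the tested channel genes, set against 32.2% of all 13784 tested genes. Lower calls made up 34.6% of the channel genes against 19.0% of all genes, and higher calls made up 5.13% against 13.2%. The median log2 fold change (aged minus young throughout) was -0.55 over the tested channel genes and 0.02 over all tested genes. In 38 of the 78 genes (48.7%, against 41.6% of all genes) the 3 aged hearts did not overlap the 3 young hearts, 28 times with the aged hearts below and 10 times above. For these 38 genes an exact two-sided permutation test of the log2 CPM gave 0.1, the smallest p that 3 hearts against 3 allow. Groups that do not overlap always give this value, so the test adds nothing to the lack of overlap. After Benjamini-Hochberg adjustment over all tested genes, edgeR placed 0 channel genes below 0.05 (24 lay below 0.1), while DESeq2 placed 27 lower and 3 higher genes and limma-voom 0 genes past the same fold limits at an adjusted p below 0.05. Scaled by library totals alone, which moved the median of all genes from 0.02 to 0.46, the split was 22 lower and 10 higher.

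**Figure D1:**
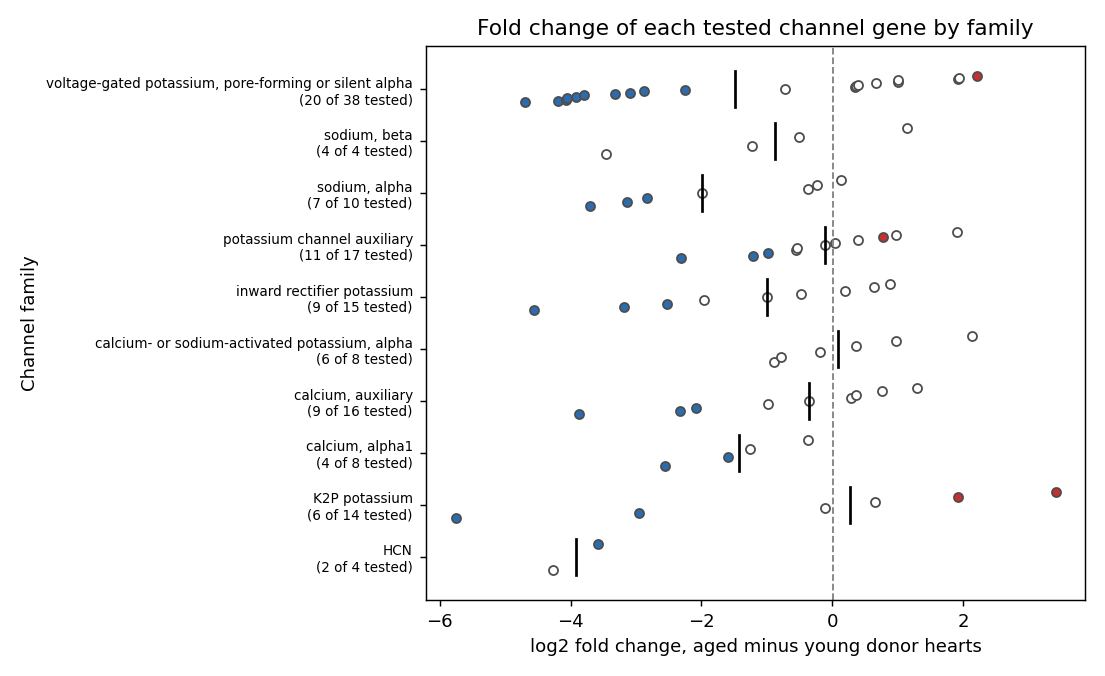
Log2 fold change (aged minus young donor hearts) of the 78 tested channel genes, by channel family. Each point is a gene, blue where it fell and red where it rose past the limits, open where it did neither, and black bars are family medians. The voltage-gated potassium channel alpha subunits hold 10 of the 27 lower genes, and the calcium- or sodium-activated potassium channels hold 0.

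By family, the largest number of calls was among the pore-forming and silent alpha subunits of voltage-gated potassium channels, where 10 of 20 tested genes fell and 1 rose. Of the inward rectifiers 3 of 9 fell, of the sodium channel alpha subunits 3 of 7, of the calcium channel alpha1 subunits 2 of 4, of the calcium channel auxiliary subunits 3 of 9, and of the HCN genes 1 of 2. The auxiliary subunits of potassium channels were divided, with 3 of 11 lower and 1 higher, and so were the K2P channels, with 2 of 6 lower and 2 higher. None of the 4 sodium channel beta subunits and none of the 6 calcium- or sodium-activated potassium channel genes passed the limits. The plot of fold changes by family shows this spread, with the lower genes reaching log2 fold changes below -5 and most open points lying near 0.

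Of the remaining 56 genes, 14 had 0 reads in every heart. At 3 counts this allows a level of up to 0.0985 to 0.191 CPM, depending on the heart. The other 42 had reads but did not pass the filter, which asks for enough reads in several hearts. Of these 42, 7 had at least 10 reads in a heart. Among the 14 was Kcna1, a neuronal potassium channel subunit. The highest count of an untested gene was 71, for Kcnip2, the subunit that tunes the fast transient outward potassium current. Its counts were 49, 71 and 4 in young animals 3, 13 and 15 and 1, 2 and 3 in aged animals 3, 4 and 7. Kcne1, the partner of Kcnq1 in the slow delayed rectifier, had counts of 26, 12 and 1 in young and 0, 6 and 5 in aged hearts.

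Levels can be compared between genes only per length, for which the deposited FPKM values (reads scaled to gene length and to the library's total count) were used. The FPKM summed over all 134 genes was 521, 561 and 501 in young animals 3, 13 and 15, and 209, 342 and 274 in aged animals 3, 4 and 7. By median FPKM, the leading genes in young hearts included Kcng2 (72.5), a silent subunit that modifies other voltage-gated potassium channels, Hcn2 (43.1), Kcnj11 (40.0) and Kcnk3 (36.6). In aged hearts the leading gene was Kcnn4 (75.5), the intermediate-conductance calcium-activated potassium channel of leukocytes and red blood cells, which stood at rank 32 in young hearts with 1.77. Kcnj8 (20.0) and Cacna2d1 (17.4) were also among the leading genes in aged hearts. The calcium- and sodium-activated potassium channels as a family made up 1.12%, 0.960% and 7.73% of the summed FPKM in young animals 3, 13 and 15, but 37.8%, 23.1% and 17.0% in aged animals 3, 4 and 7. Most of the aged share was 1 gene, Kcnn4, which did not pass the limits, and the rest of the family made up 0.781%, 0.725% and 0.613% in young and 1.47%, 1.06% and 1.91% in aged hearts. The voltage-gated potassium channel alpha subunits went the other way, from 28.3%, 27.3% and 19.3% in young to 9.52%, 13.7% and 12.3% in aged hearts. Neither family's shares overlapped between the groups. The same was true of the HCN genes and the sodium channel alpha subunits, with lower shares in aged hearts, and of the auxiliary subunits of potassium channels, with higher shares.

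**Figure D2:**
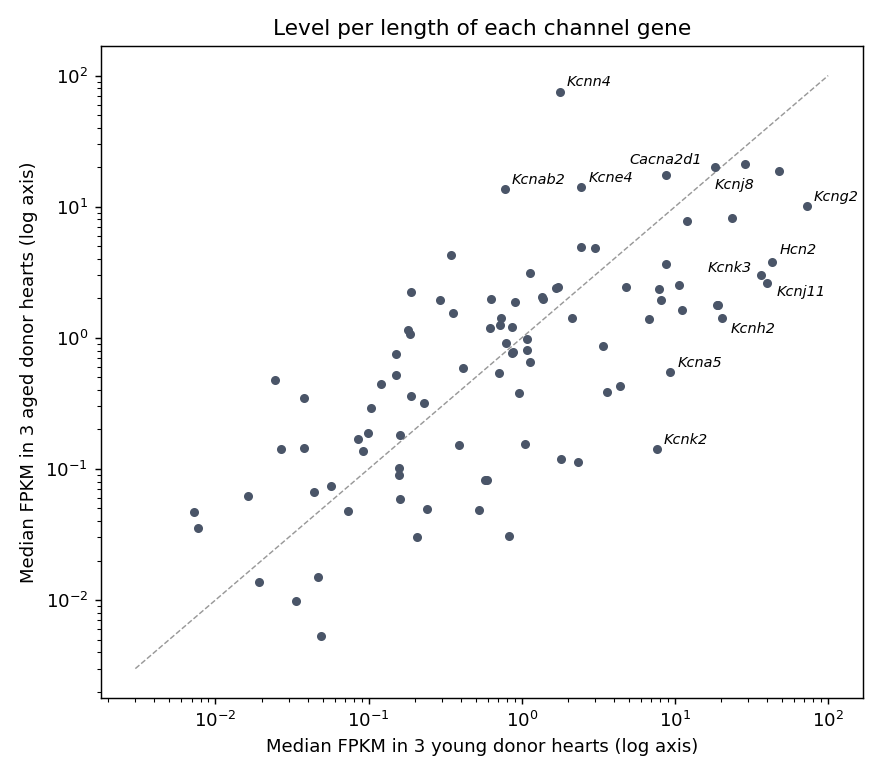
Median FPKM of channel genes in the 3 young (horizontal) and the 3 aged donor hearts (vertical), both on log axes, for the 94 genes with a median above 0 in both groups. Each point is a gene and the dashed line marks equal levels. Kcnn4 lies farthest above the line among abundant genes (1.77 in young, 75.5 in aged), and Kcnk2, Kcna5 and Kcnj11 lie well below it.

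The plot of median FPKM shows the abundant young genes Hcn2, Kcnk3, Kcnj11 and Kcnh2 under the line of equal levels, Kcnj8 close to it, and Kcnn4, Kcnab2 and Kcne4 above it. Kcng2 and Kcne4 were named after their values were seen. Kcng2 was at 173, 204 and 101 CPM in young and at 4.34, 35.7 and 15.9 CPM in aged hearts, and it fell (log2 fold change -3.10, SE 0.76, adjusted p = 0.0916). Kcne4, an auxiliary subunit that inhibits several potassium channels, was at 1.996, 1.34 and 6.77 CPM in young and 7.13, 5.08 and 7.93 CPM in aged hearts and did not pass the limits (0.98, SE 0.62).

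Many genes of the cardiac action potential fell, and none rose. Of 26 tested genes on this list, 15 fell (57.7%, against 19.0% of all genes tested) and 0 rose. In 15 (57.7%, against 41.6% of all genes tested) the groups did not overlap, and 25 had a negative fold change. In all 15 the aged hearts lay below the young hearts, as was the case in 2846 of all 13784 tested genes. The list's median log2 fold change was -2.54. Young animal 15 was the lowest of the young hearts in 21 of the 26 genes and aged animal 3 the lowest of the aged hearts in 20, the same hearts whose cardiomyocyte marker sums were lowest in their groups. With the mean log2 level of the cardiomyocyte markers as a covariate in edgeR, 3 of the 26 genes passed the limits, all lower. These were Cacna1g (log2 fold change -2.28, SE 0.46), Kcnh2 (-1.66, SE 0.55) and Kcnj11 (-1.15, SE 0.23), each with an adjusted p of 0.899. In that fit 4.76% of all genes passed, and it cannot separate marker level from donor age. Without young animal 15 and aged animal 3 together, 23 of the list's genes fell, but the share of all genes in that fit is not given here.

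**Figure D3:**
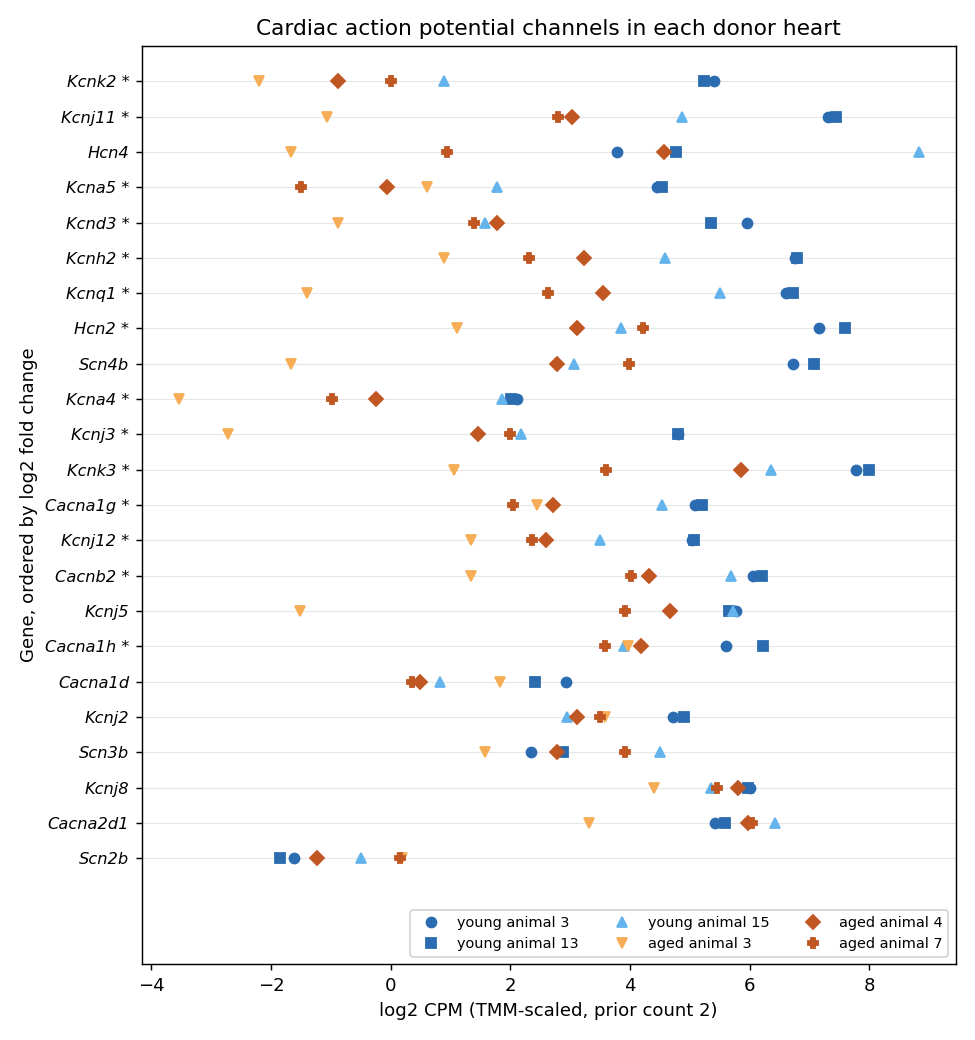
Log2 CPM (TMM-scaled, prior count 2) of 23 of the tested cardiac action potential genes in each donor heart, ordered by log2 fold change from the largest fall at the top. Blue symbols are the 3 young and orange symbols the 3 aged hearts, and an asterisk marks the 14 of these genes past the limits. In most rows young animals 3 and 13 lie farthest to the right and aged animal 3 farthest to the left.

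Sodium channels start the action potential, and their beta subunits modify gating and adhesion. Scn4b, a beta subunit, was at 105, 135 and 8.26 CPM in young and 0.230, 6.75 and 15.7 CPM in aged hearts, where young animal 15 lay among the aged hearts (-3.45, SE 1.47). The beta subunit genes Scn3b (-0.51, SE 0.77) and Scn2b (1.15, SE 0.67) overlapped between the groups as well.

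Calcium channel genes differed in how far their groups separated. Cacna1g, a T-type channel of the conduction system and of the developing ventricle, was at 33.8, 36.9 and 23.0 CPM in young and 5.35, 6.48 and 4.06 CPM in aged hearts. Its groups were tight and far apart, and it fell with the smallest standard error of the lower genes on this list (-2.56, SE 0.29, adjusted p = 0.0916). Cacna1h, the other T-type channel tested, fell less (-1.60, SE 0.56, adjusted p = 0.113), and young animal 15 with 14.8 CPM lay within the aged range of 11.8 to 18.2 CPM. Cacnb2, a beta subunit that brings calcium channels to the membrane, was at 66.1, 73.6 and 51.6 CPM in young and 2.46, 19.8 and 16.1 CPM in aged hearts and fell (-2.32, SE 0.70, adjusted p = 0.0956). Cacna1d, an L-type alpha1 subunit of pacemaker and atrial cells, overlapped between the groups (-1.26, SE 0.68). Cacna2d1, the alpha2-delta subunit, was at 42.5, 48.1 and 85.3 CPM in young and 9.89, 62.6 and 65.5 CPM in aged hearts, so that 2 of the aged hearts lay above 2 of the young ones (-0.35, SE 0.68). Outside the list, the gamma subunit gene Cacng6 was among the largest falls, from 15.2, 12.5 and 3.26 CPM in young to 0.0985, 1.63 and 0.383 CPM in aged hearts (-3.88, SE 1.06, adjusted p = 0.0920).

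Voltage-gated potassium channels that repolarize the myocyte showed some of the largest falls. Kcnh2, the rapid delayed rectifier known as ERG, was at 108, 111 and 23.9 CPM in young and 1.77, 9.33 and 4.90 CPM in aged hearts, and it fell by 3.92 on the log2 scale (SE 0.83, adjusted p = 0.0916). Kcnq1, the slow delayed rectifier, was at 97.8, 106 and 45.2 CPM in young and 0.296, 11.6 and 6.09 CPM in aged hearts and fell by 3.79 (SE 1.11, adjusted p = 0.0936). In both genes every aged heart lay below young animal 15, the lowest young heart. Kcna5, the ultrarapid delayed rectifier, went from 21.8, 23.0 and 3.35 CPM to 1.45, 0.872 and 0.268 CPM (-4.20, SE 0.93, adjusted p = 0.0916). These 3 genes all separated the groups.

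The transient outward channels act early in repolarization, and both tested genes of the action potential list fell. Kcnd1, of the same channel family but not on that list and named here after its values were seen, overlapped between the groups and did not pass the limits (0.66, SE 0.47, adjusted p = 0.327). Kcnd3 was at 62.1, 40.8 and 2.89 CPM in young and 0.460, 3.34 and 2.53 CPM in aged hearts, and fell (-4.06, SE 1.21, adjusted p = 0.0945). Young animal 15 lay below aged animal 4 in this gene, so the groups overlapped. Kcna4, the slowly recovering transient outward channel, was even among the young hearts at 4.23, 3.94 and 3.55 CPM and at 0, 0.758 and 0.422 CPM in aged hearts (-3.31, SE 1.01, adjusted p = 0.0966). Unlike in Kcnd3, young animal 15 lay close to the other young hearts, and the groups did not overlap.

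Among inward rectifiers, Kcnj12 fell and Kcnj2, the other main subunit of the resting potassium current, did not pass the limits. Kcnj12 was at 32.6, 33.6 and 11.2 CPM in young and 2.46, 5.95 and 5.06 CPM in aged hearts (-2.52, SE 0.54, adjusted p = 0.0916), without overlap. Kcnj2 was at 26.1, 29.8 and 7.64 CPM in young and 11.9, 8.61 and 11.2 CPM in aged hearts (-1.004, SE 0.50, adjusted p = 0.195), and young animal 15 was the lowest of all 6 hearts. Per length, the FPKM of Kcnj2 exceeded that of Kcnj12 by factors of 6.60, 1.98 and 3.03 in aged animals 3, 4 and 7, and the same ratio was 1.10, 1.22 and 0.940 in young animals 3, 13 and 15. Kcnj3 and Kcnj5 together form the acetylcholine-activated potassium channel. Kcnj3 fell, from 27.8, 27.8 and 4.42 CPM to 0.0657, 2.65 and 3.91 CPM (-3.18, SE 1.24, adjusted p = 0.132). Kcnj5 was at 54.2, 50.4 and 52.6 CPM in young and 0.263, 25.3 and 15.1 CPM in aged hearts, where again aged animal 3 lay far below the others and the limits were not passed (-1.95, SE 1.17). Young animal 15 matched the other young hearts in Kcnj5 but not in Kcnj3.

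ATP-sensitive potassium channels are built from a pore subunit, Kcnj11 (Kir6.2, the sarcolemmal form of ventricular myocytes) or Kcnj8 (Kir6.1, abundant in vascular smooth muscle and pericytes), and a sulfonylurea receptor, Abcc8 or Abcc9. Kcnj11 was at 158, 173 and 29.1 CPM in young animals 3, 13 and 15 and 0.394, 8.04 and 6.86 CPM in aged animals 3, 4 and 7, and it was 23.5-fold higher in young hearts by the edgeR fit (log2 fold change -4.56, SE 1.19, adjusted p = 0.0916). Kcnj8 was at 64.3, 62.6 and 40.6 CPM in young and 21.0, 55.8 and 43.5 CPM in aged hearts, which overlapped (-0.48, SE 0.39, adjusted p = 0.388). Scaled by library totals alone its fold change was 0.000168, so no direction is given for it. The FPKM of Kcnj11 was 2.04 and 2.30 times that of Kcnj8 in young animals 3 and 13, 0.596 times in young animal 15, and 0.0156, 0.120 and 0.131 times in aged animals 3, 4 and 7. The ratio thus lay below every young heart in every aged heart.

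The receptor genes are not on the symbol list but lie next to their pore genes in the table's Rnor_6.0 coordinates. Abcc8 lies on chromosome 1, 4.581 kb from Kcnj11, and Abcc9 lies on chromosome 4, 16.127 kb from Kcnj8. Abcc8 fell like its neighbor, from 72.0, 72.5 and 8.01 CPM to 0.328, 5.84 and 6.25 CPM (-3.62, SE 1.21, adjusted p = 0.106). Abcc9, whose receptor is the ventricular and the vascular form, fell from 465, 526 and 215 CPM to 57.7, 120 and 125 CPM (-1.99, SE 0.46, adjusted p = 0.0916), although its neighbor Kcnj8 did not pass the limits. Smooth muscle and mural markers, which mark cells that use Kcnj8, summed to 3347, 3884 and 8168 CPM in young and 1089, 5484 and 3004 CPM in aged hearts, with 1 of 8 lower and none at 0. Most of this sum in 5 of the 6 hearts was Des, which cardiomyocytes also express, and the other 7 summed to 977, 1104 and 754 CPM in young and 949, 857 and 706 CPM in aged hearts. The 1 lower marker was Rgs5, at 276, 305 and 112 CPM in young and 49.4, 57.3 and 30.5 CPM in aged hearts (-2.34, SE 0.45, adjusted p = 0.0916). The part of smooth muscle and mural cells in the Kcnj8 values was not tested.

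**Figure D4:**
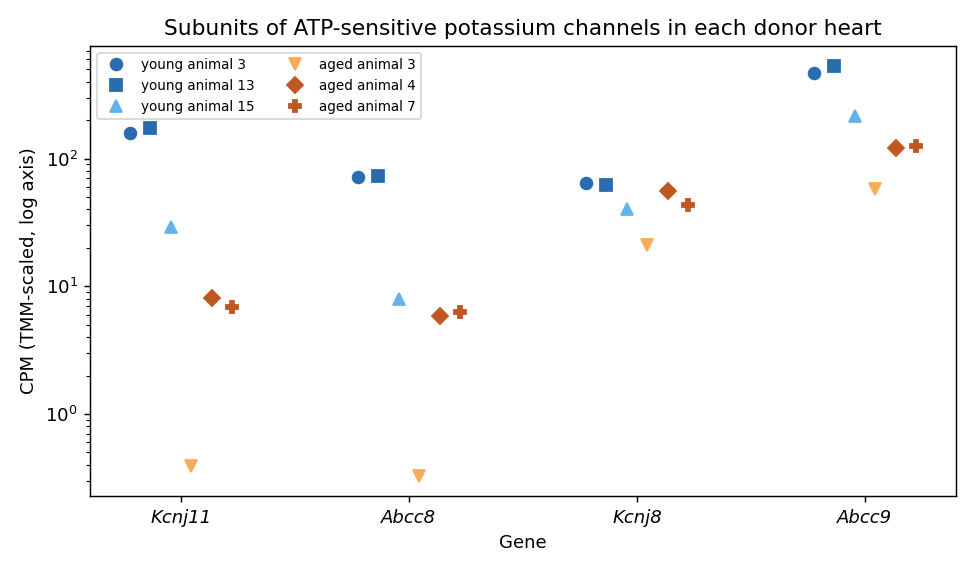
CPM (TMM-scaled, log axis) of the pore genes Kcnj11 and Kcnj8 and the receptor genes Abcc8 and Abcc9 of ATP-sensitive potassium channels in each donor heart. Blue symbols are the 3 young and orange symbols the 3 aged hearts. The groups are apart for Kcnj11, Abcc8 and Abcc9 and overlap for Kcnj8, where aged animal 4 reaches 55.8 CPM.

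K2P background channels held the largest fall and 2 of the 4 rises. Kcnk2 (TREK-1), a channel opened by stretch and lipids, was at 42.0, 37.8 and 1.78 CPM in young and 0.131, 0.455 and 0.920 CPM in aged hearts. It was 54.1-fold higher in young hearts by the fit (-5.76, SE 1.33, adjusted p = 0.0916), and its aged values rest on 4, 12 and 24 reads. Young animal 15 lay much nearer to the aged hearts than to the other young ones, but still above them. Kcnk3 (TASK-1), an acid-sensitive background channel, was at 220, 253 and 81.9 CPM in young and 2.003, 57.9 and 11.99 CPM in aged hearts (-2.95, SE 1.15, adjusted p = 0.132). Kcnk13 rose, as given with the leukocyte genes, and Kcnk12, named after its values were seen, was the other K2P gene that rose, at 0, 0.0636 and 0.124 CPM in young and 1.12, 0.796 and 0.422 CPM in aged hearts (3.41, SE 0.82, adjusted p = 0.0916), a low level throughout.

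HCN genes were uneven between hearts. Hcn2, the HCN form of ventricular muscle, was at 142, 192 and 14.3 CPM in young and 2.07, 8.57 and 18.5 CPM in aged hearts, and it fell (-3.58, SE 1.14, adjusted p = 0.0993) although young animal 15 lay below aged animal 7. Hcn4, the form that marks the sinoatrial node and the conduction system, was at 13.6, 27.1 and 452 CPM in young and 0.230, 23.6 and 1.84 CPM in aged hearts (-4.26, SE 2.005, adjusted p = 0.178). Its mean in young hearts rests on animal 15, and without that heart the fold change was -1.23. The FPKM of Hcn4 was 14.6 times that of Hcn2 in young animal 15 and 1.27 times in aged animal 4, against 0.0441 to 0.0651 times in the other 4 hearts. Atrial marker genes summed to 394 CPM in young animal 15 and 1517 CPM in aged animal 4, against 83.6 and 44.8 CPM in the other young and 5.65 and 371 CPM in the other aged hearts. None of the atrial markers passed the limits and Sln was at 0 in at least 1 heart. Nppa, which ventricular myocytes also express under load, made up 390 of the CPM in young animal 15, 1367 in aged animal 4 and 368 in aged animal 7. The other atrial markers summed to 62.4, 7.44 and 3.84 CPM in young animals 3, 13 and 15 and 1.08, 150 and 3.49 CPM in aged animals 3, 4 and 7, so that young animal 15 was the lowest young heart by these. The part of atrial or conduction tissue in the Hcn4 values was not tested.

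Of 5 tested leukocyte potassium channel genes, 1 rose past the limits (20%, against 13.2% of all genes tested) and 0 fell. In 4 of the 5 every aged heart lay above every young heart, as was the case in 2891 of all 13784 tested genes. Counting both directions, the groups did not overlap in these 4 (80%) and in 41.6% of all genes tested. The list's median log2 fold change was 1.92. Kcnn4 was at 5.02, 3.94 and 71.8 CPM in young animals 3, 13 and 15 and 134, 146 and 77.8 CPM in aged animals 3, 4 and 7. Young animal 15 lay just below the lowest aged heart, and the gene did not pass the limits (2.14, SE 1.13, adjusted p = 0.214). Of the 6 edgeR fits that each left out 1 heart, Kcnn4 passed the limits in 1, the fit without young animal 15. Over those fits its log2 fold change ran from 1.63 to 4.77 and its adjusted p from 0.00117 to 0.428. The upper fold change and the lower p came without young animal 15, which was singled out after its values were seen. Kcnk13, a K2P channel known from microglia, was at 0.907, 0.636 and 4.58 CPM in young and 9.82, 7.73 and 6.13 CPM in aged hearts and was the gene that rose (1.92, SE 0.76, adjusted p = 0.133). Leaving out young animal 15 gave 3.38 for Kcnk13, and leaving out any of the other hearts lost its call.

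Kcnab2, a cytoplasmic beta subunit of voltage-gated channels, was at 1.996, 1.02 and 15.2 CPM in young and 30.2, 23.8 and 15.4 CPM in aged hearts (1.91, SE 0.97, adjusted p = 0.202). Kcna3 (Kv1.3), the voltage-gated channel of lymphocytes and macrophages, was at 0.181, 0.827 and 3.84 CPM in young and 7.32, 6.29 and 5.13 CPM in aged hearts (1.92, SE 0.91, adjusted p = 0.182). In both, young animal 15 was the highest young heart and aged animal 3 the highest aged heart, the reverse of their order in most action potential genes. Kcnk5, a K2P channel also found in T cells, overlapped between the groups at 0.636 to 2.84 CPM in young and 0.958 to 1.86 CPM in aged hearts (-0.10, SE 0.60), and its sign depended on the scaling. Kcnk6 had at most 6 reads in a heart and was not tested. Of the macrophage markers 5 of 10 were higher in aged hearts and of 5 tested T cell markers 1 was, Cd2. The T cell markers summed to 25.9 to 77.2 CPM in young and 91.7 to 139 CPM in aged hearts, of which Cd8a, which did not pass the limits, gave 2.42, 0.890 and 55.8 CPM in young and 99.0, 88.3 and 63.8 CPM in aged hearts. Cd3e (0.53) and Cd3g (-0.37) overlapped between the groups, and Cd3d was not tested and at 0 in at least 1 heart. The part of leukocyte number in these channel genes was not tested. Without young animal 15, 4 of the 5 genes rose past the limits. The share of all genes that rose in that fit is not given here, so the count cannot be judged against it.

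**Figure D5:**
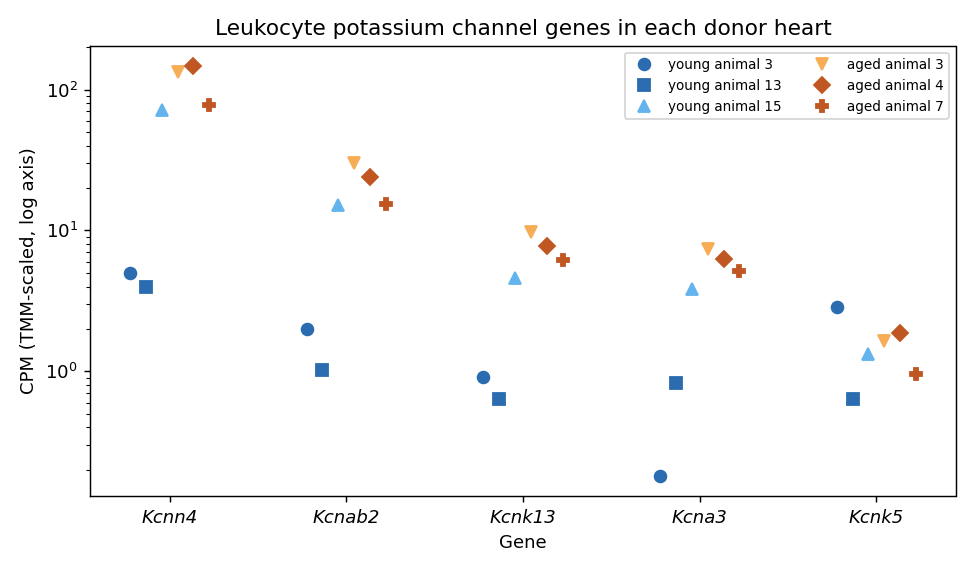
CPM (TMM-scaled, log axis) of the 5 tested leukocyte potassium channel genes in each donor heart. Blue symbols are the 3 young and orange symbols the 3 aged hearts. In Kcnn4, Kcnab2, Kcnk13 and Kcna3 all aged hearts lie above all young hearts, with young animal 15 nearest to them, and in Kcnk5 the groups overlap.

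Kcne3, a small subunit that holds Kcnq1 open in epithelia, was the remaining gene with a mean of at least 1 CPM that rose. It was at 1.51, 1.78 and 1.69 CPM in young and 2.96, 2.46 and 3.14 CPM in aged hearts, a small change with close replicates (0.78, SE 0.29, adjusted p = 0.119). Kcnh1, named after its values were seen, rose at a mean below 1 CPM, from 0.242, 0.191 and 0.537 CPM to 2.59, 1.52 and 0.575 CPM (2.21, SE 0.71, adjusted p = 0.0998).

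Vascular smooth muscle channel genes did not pass the limits in either direction (0 of 4). Kcnma1, the large-conductance calcium-activated channel, had a log2 fold change of -0.89 (SE 0.58) at 0.702 to 1.51 CPM in young and 0.227 to 0.766 CPM in aged hearts. Its beta subunit Kcnmb1 had -0.10 (SE 0.45), with a sign that turned with library totals, and Kcnq5 had 1.01 (SE 0.73). Of 20 neuronal channel genes in the table, 7 were tested, 2 fell (28.6%, against 19.0% of all genes tested) and 0 rose. The 2 were Scn1a, at 8.83, 11.95 and 4.05 CPM in young and 0.0328, 1.02 and 0.843 CPM in aged hearts (-3.71, SE 0.98, adjusted p = 0.0916), and Kcna2. Markers of neurons and glia summed to 25.4 to 69.8 CPM in young and 67.8 to 75.8 CPM in aged hearts, with 1 of 7 tested lower and Th and Snap25 at 0 in at least 1 heart.

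Genes that lie side by side did not always move alike. Sodium channel genes cluster on chromosome 3, where Scn1a and Scn7a fell, while Scn2a (-0.37, SE 0.56) and Scn3a (-0.23, SE 0.41) overlapped between the groups. Scn7a, a sodium channel relative that responds to the sodium concentration outside the cell, was named after its values were seen and was at 75.5, 47.4 and 15.0 CPM in young and 3.78, 6.26 and 9.43 CPM in aged hearts (-2.82, SE 0.65, adjusted p = 0.0916). On chromosome 2, Kcna3 and Kcna2 lie on the same strand, 69.158 kb apart in the table's Rnor_6.0 coordinates (Kcna3 at 209766512 to 209769711, Kcna2 at 209838869 to 209852471). Kcna2, a Kv1 subunit best known from axons, was at 38.2, 28.8 and 1.82 CPM in young and 1.12, 1.21 and 1.80 CPM in aged hearts and fell (-4.05, SE 1.04, adjusted p = 0.0916), with young animal 15 barely above the highest aged heart. Its neighbor Kcna3 lay in the other direction, as given above. Kcna3 overlaps an unnamed gene model on the same strand with 188 reads over all hearts against 632 for Kcna3, so its values are uncertain to that degree. Kcna5, a relative on chromosome 4, fell as well.

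The promoters of these 3 Kcna genes are shown to set the letters around the start of a gene that fell beside those of a neighbor that did not. Each line is the 250 bases before the first annotated start, 5′ to 3′, from RefSeq on build GRCr8, a build other than that of the table. Capitals mark the GC box GGGCGG, a motif bound by Sp-family factors, on either strand (CCGCCC on the other). The windows are chr2:197320074-197320323 on the plus strand for Kcna3, chr2:197393280-197393529 on the plus strand for Kcna2 and chr4:161043810-161044059 on the minus strand for Kcna5.
Kcna3: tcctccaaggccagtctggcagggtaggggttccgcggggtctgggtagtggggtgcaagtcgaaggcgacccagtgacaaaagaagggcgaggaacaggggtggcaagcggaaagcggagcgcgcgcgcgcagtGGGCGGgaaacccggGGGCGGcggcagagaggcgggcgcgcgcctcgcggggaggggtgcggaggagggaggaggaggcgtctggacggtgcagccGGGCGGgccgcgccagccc
Kcna2: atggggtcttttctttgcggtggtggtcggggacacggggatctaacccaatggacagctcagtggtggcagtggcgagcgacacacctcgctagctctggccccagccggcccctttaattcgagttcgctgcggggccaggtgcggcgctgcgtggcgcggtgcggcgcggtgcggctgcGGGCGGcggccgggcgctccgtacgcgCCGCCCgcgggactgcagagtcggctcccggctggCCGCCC
Kcna5: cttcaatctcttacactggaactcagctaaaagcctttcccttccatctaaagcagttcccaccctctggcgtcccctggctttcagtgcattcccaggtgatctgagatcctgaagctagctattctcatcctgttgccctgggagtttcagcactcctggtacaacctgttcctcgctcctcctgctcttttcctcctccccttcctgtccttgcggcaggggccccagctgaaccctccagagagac

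The neighbors Kcna3 and Kcna2 each held 3 GC boxes at 73.6% and 72.4% GC, though their values went in different directions, and Kcna5, which moved with Kcna2, held 0 at 54.8% GC. Of the 134 channel genes 89 had a promoter in the RefSeq table, and 49.4% of these held the GC box on either strand, against 32.4% of all 27457 promoters of the same length. Of the 16 promoters of genes that fell, 56.2% held it. The TATA box, TATAAA on either strand, was in 4.49% of the channel promoters against 13.1% of all promoters, and in 0 of the 16. The median GC content was 60.8% for channel promoters and 52% for all, so the higher share of GC boxes came with richer GC. These matches are descriptions of letters, and no factor was measured.

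Proteins that work with the channels but carry other names were counted from a list of 21 genes, of which 17 were tested. Of these, 8 fell (47.1%, against 19.0% of all genes tested) and 1 rose (5.88%, against 13.2%). Abcc8, Fgf13 (-2.96, SE 1.12) and Fgf12 (-2.30, SE 0.73), the Fgf genes being intracellular modulators of sodium channels, had the largest falls. Stac2, an adaptor of calcium channels, rose from 0.665, 0.318 and 2.35 CPM to 4.20, 4.17 and 3.10 CPM (1.74, SE 0.70, adjusted p = 0.137). All 8 tested genes of the sodium-potassium pump were abundant enough to compare. Of these, 5 fell (62.5%, against 19.0% of all genes tested) and 2 rose (25%, against 13.2%). Among those that fell were Fxyd1, the phospholemman regulator (-2.66, SE 0.82, adjusted p = 0.0976), and Atp1b1 (-2.08, SE 0.45, adjusted p = 0.0916). Fxyd5, a pump regulator known from epithelia (1.79, SE 0.66, adjusted p = 0.121), and Atp1b3 (1.02, SE 0.40, adjusted p = 0.134) rose.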

How the data were processed

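RNA from left ventricular myocardium of 3 young and 3 aged donor hearts was sequenced as polyadenylated RNA in 1 library per heart. The authors deposited 1 table with raw read counts per gene and FPKM values per gene, and all per-heart columns were mapped (0 were left over). The submitters' processing notes name HISAT2 2.0.5, StringTie 1.3.3b, featureCounts 1.5.0-p3, DESeq2 1.16.1, GATK 3.7 and build Rnor_6.0, and the use of strand in counting was not given in the sources used here, so reads of overlapping genes cannot be told apart. All 804 deposited FPKM values of the channel genes equaled the count per length and library total.

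Counts were analyzed in R 4.3.3 with edgeR 4.0.16 (filterByExpr, TMM, quasi-likelihood test, no covariates, 13784 genes), with DESeq2 1.42.0 and limma 3.58.1 as alternatives. Standard errors were obtained from the fold change and the test's F statistic. Calls past the limits use the unadjusted p, and adjusted p-values were adjusted over all tested genes. Each p-value sets the difference between the groups against the spread between the 3 animals of a group, estimated partly from other genes. The number of animals and total counts of 21457509 to 24560869 limit the precision of the p-values. The limit that a count of 0 allows, 3 counts, was 0.0985 to 0.191 CPM. The scripts were tested on simulated data. Figures used Python 3.11.15 and matplotlib 3.10.9.

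The genes, gene lists and tests were chosen with earlier results of these data known. Named genes are the tested genes of the cardiac, leukocyte and vascular lists, the 8 largest rises and falls past the limits with a mean of at least 1 CPM, the neuronal genes past the limits, and for genes of other names the 3 largest changes per direction. Alternatives were other scalings, filters, tests and thresholds, a cardiomyocyte marker covariate, and leaving out each heart. Some genes that fit the symbols or lists are not reported here.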

Additional observations from a re-analysis of the deposited data

How the results depend on the processing

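Directions of the genes named by the rule held under most alternatives. Counts of calls depended on the test and on single hearts, and the cause was not tested. With 27 lower and 4 higher channel genes, 15 lower action potential genes, 1 higher leukocyte gene, 8 lower and 1 higher partners, and 5 lower and 2 higher pump genes as reported, an adjusted p below 0.05 in edgeR or in limma-voom left 0 of each, and below 0.1 in edgeR left 2 higher channel genes, 5 lower partners and 0 higher leukocyte, partner and pump genes. DESeq2 at an adjusted p below 0.05 gave 0 higher partners and 1 higher pump gene. The cardiomyocyte covariate left 8 lower and 1 higher channel genes, 3 lower action potential genes, 0 higher leukocyte genes, 0 lower partners, and 1 lower and 0 higher pump genes. Higher channel genes numbered 10 with library totals (which left 3 lower pump genes), 2 with a filter of 1 CPM in 3 hearts, 9 with DESeq2 and 7 with limma-voom, and the last pair each gave 4 higher leukocyte genes. Leaving out 1 heart at a time gave 1 to 15 higher and 22 to 36 lower channel genes, 39 to 62 genes without overlap, medians of -0.98 (without aged animal 7) to -0.48, 0 to 1 higher and 12 to 20 lower action potential genes, 0 to 4 higher leukocyte genes, 0 to 2 higher and 4 to 10 lower partners, and 0 to 3 higher and 3 to 5 lower pump genes. The highest counts of higher genes and of genes without overlap came without young animal 15. Of the 18 lower genes named by the rule 12 stayed lower in all 6 of these fits, and of the 2 that rose 0 did. Calls were lost for Hcn2 without aged animal 4 and for Kcna4 without aged animal 7, and Cacna1h and Kcnk13 kept theirs only without young animal 15, Kcnj3 only without it or aged animal 3, Kcnk3 only without it or aged animal 3 or 4, and Kcne3 only without it or aged animal 4. Leaving out young animal 15 and aged animal 3 together, chosen after seeing the data, gave 14 higher channel genes, 64 genes without overlap, 23 lower action potential genes, 4 higher leukocyte genes and 2 higher partners. Groups of fewer hearts separate more easily, so counts without overlap from fits that leave hearts out cannot be set against those from all hearts. The shares of all genes called in the fits that leave hearts out are not given here. Signs were followed only for the genes named by the rule, and not in the covariate fit. Among these genes, signs turned only in those without a call. These were Kcnj8 with library totals (0.000168), Kcnk5 with library totals (0.36), limma-voom (0.0803) and single hearts left out (-0.48 to 0.58), Kcnmb1 likewise (0.43, 0.0502, and -0.39 to 0.18), Scn3b with single hearts (-1.27 to 0.46) or both hearts left out (0.87), and Cacna2d1 likewise (-0.69 to 0.13, and 0.54). No paired analysis was possible because the groups share only 1 animal number, and nothing says that it marks a shared batch. At these depths a gene below 3 counts (0.0985 to 0.191 CPM) was not detectable.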
